A study of Bos taurus with 16 samples.

Results

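The liver and the skeletal muscle of calves from embryos that had developed in vivo were compared within each calf. The comparison rests on 8 RNA libraries of 16 in the series, 1 from the liver and 1 from the muscle of each of 4 Holstein bull calves. Libraries were chosen by their labels for organ and origin and paired by calf number. The embryos came from multiple ovulation followed by embryo transfer (MOET): a donor cow was hormonally stimulated and inseminated, and the embryos were collected and placed in recipient cows. The calves are identified by their numbers. Calves 3217 and 3218 were 102 days old when sampled, calf 5932 was 104 and calf 3213 was 144. None carried an engineered allele or received a treatment. Liver came from the right lobe and muscle from the semitendinosus of the left leg. Calves 3217 and 3218 have the same parents and calves 3213 and 5932 the same mother, so the calves are not 4 unrelated animals. The other 8 libraries, from the same organs of 4 calves whose embryos were produced in vitro (IVP, aged 98 to 103 days), enter only where they are named.

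Hepatocytes take up nutrients from the portal blood, make glucose between meals, dispose of ammonia, synthesise bile acids and release most of the proteins of blood plasma, among them apolipoproteins and the clotting factors. Skeletal muscle fibres are filled with contractile filaments of actin and myosin, release calcium from an internal store to trigger contraction, and burn glucose and fatty acids in place. Cells of both organs share ribosomes, mitochondria and the machinery that folds and degrades proteins.

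The deposited table gives gene-level counts that the authors adjusted for age, under Ensembl gene identifiers without names. The study's supplementary tables pair 4181 of the 27607 identifiers with a gene symbol, and only these could be named. Because those tables list genes picked for differences between IVP and MOET calves, the named genes are not a random set, and many well known genes of liver and muscle are not named here. Levels are given below as CPM, a gene's counts relative to the size of its library, with library sizes scaled by the trimmed mean of M-values (TMM). Where values of single libraries are listed, the order is calf 3217, 3218, 5932 and 3213. Levels of different genes are not compared, since gene lengths were not used.

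Library totals lay between 22758137 and 24667728 counts in liver and between 23677247 and 25338711 in muscle, so depth was similar in both organs. Calf 3213 did not behave as a separate sample. For genes averaging over 200 counts, its liver library lay a median of 0.0219 log2 units from the average of the remaining MOET calves, and its muscle library 0.0137. Counting noise alone would give 0.0383 and 0.0413, and the other 3 calves deviated by 0.121 to 0.189. The libraries of calf 3213 were therefore not counted as separate replicates. Fits and means ± SD cover the 3 other calves (n = 3), and the values of calf 3213 are printed beside those of the others. Labels for organ held in all 8 libraries: the named hepatocyte markers APOA1, APOB and TTR were higher in every liver library than in every muscle library, and the 6 named markers of muscle fibres (ACTA1, MYH2, MYH7, MYLPF, TNNT3 and TNNC2) were higher in every muscle library.

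The most abundant genes took a larger part of the RNA in muscle than in liver. From 25 to 28 genes held 50% of the counts of a muscle library, against 109 to 146 genes in liver. The 10 leading genes took 33.2% to 35.8% of a muscle library and 21.4% to 24.1% of a liver library. ACTA1, the actin of skeletal muscle fibres, took 10.7%, 10.2%, 10.4% and 10.6% of the counts of the muscle libraries. TNNC2, the calcium-binding troponin of fast fibres, took 1.86%, 2.03%, 2.11% and 2.00%. The other 8 of the 10 leading genes of muscle and all 10 of liver are not named in the tables used here. The leading liver gene, ENSBTAG00000017121, took 9.64%, 9.65%, 7.49% and 8.96% of a liver library. The second, ENSBTAG00000043561, was among the 10 leading genes of muscle too, at 2.13% to 2.95% of a liver library and 2.87% to 2.96% of a muscle library. More genes were detected in liver: 18303 to 18663 genes had at least 1 count there and 16275 to 17456 in muscle. Over the 3 calves, 1993 genes reached 1 CPM of the library total in every liver library and in no muscle library, 610 showed the opposite, and 9971 reached it in all 6 libraries.

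**Figure D1:**
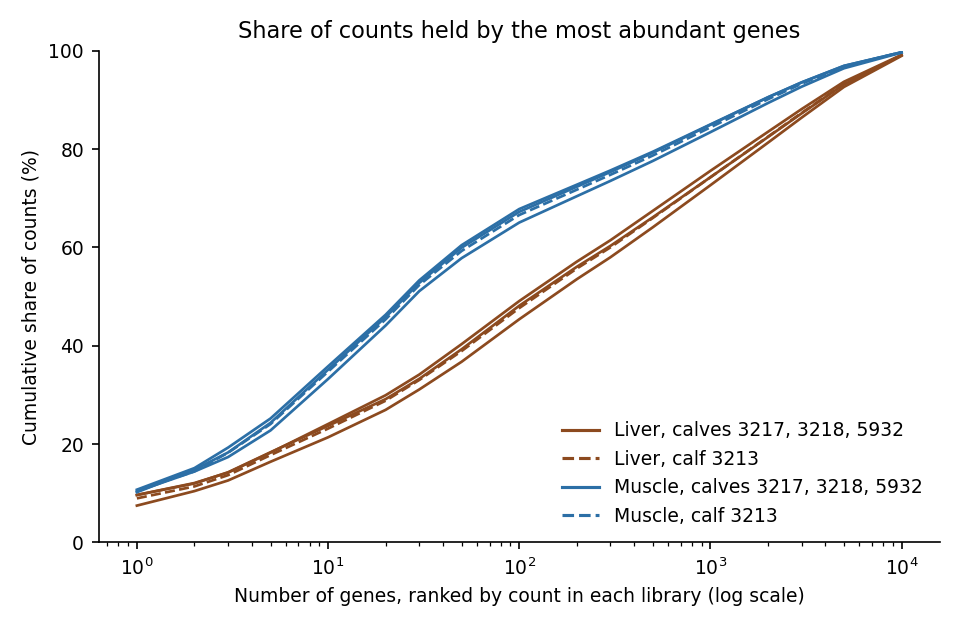
Cumulative share of counts (%) against the number of genes, ranked by their count within each library on a log scale, for the 4 liver and 4 muscle libraries of MOET calves. The muscle curves lie above the liver curves over most of the range, and 10 genes hold 33.2% to 35.8% of a muscle library and 21.4% to 24.1% of a liver library.

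Most genes that could be tested differed between the organs. In edgeR's quasi-likelihood test on the 3 pairs, with the calf as a block, 12199 of 14784 genes (82.5%) had a false discovery rate (FDR) under 0.05. Of these, 6535 (44.2% of the genes tested) were higher in liver and 5664 (38.3%) in muscle. A difference of more than 2-fold was called by edgeR's glmTreat for 7337 genes (49.6%), 4150 (28.1%) higher in liver and 3187 (21.6%) in muscle. The median absolute difference over all genes tested was 1.27 on the log2 scale, and 1836 genes called higher in liver and 986 called higher in muscle differed by more than 10-fold. In 6509 of the 6535 genes called higher in liver, the liver library lay above the muscle library in all 4 calves, and in 5620 of the 5664 called higher in muscle it lay below in all 4. Compared with the organs, the calves differed little within an organ: over 4341 genes with at least 10 CPM in all 6 libraries the median SD between calves was 0.124 log2 units in either organ.

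The direction of small differences depends on the scaling. TMM raised muscle levels by 0.78 log2 units against liver when compared with library totals. The median difference of all genes tested was 0.14 under TMM and 0.92 under library totals. Without TMM 73.2% of the calls were higher in liver, against 53.6% with it, and 76.8% against 56.6% of the calls past 2-fold. Each list median below is to be read against the median of 0.14 for all genes under TMM, or of 0.92 where it is given under library totals. Likewise, each count of called members below is to be read against the shares of all genes tested. These were 44.2% called higher in liver and 38.3% in muscle, and 28.1% and 21.6% past 2-fold. Most members could be named only through tables of genes picked for differences between IVP and MOET calves, in part from these same libraries. A gene could also pass the filter on its counts in 1 organ alone. The counts therefore describe the members tested and not whole functions or families. Differences smaller than about 0.78 in favour of muscle turn when library totals are used. All differences are log2 of liver over muscle, positive where liver is higher.

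The genes with the widest gap were listed at or near 0 in the other organ. The 10 named genes with the largest difference towards liver included APOA2, LOC511240, APOC3, APOB, FMO1, FABP1, MBL2, GLYAT and LECT2, taken among genes called past 2-fold with a mean of at least 10 CPM in the higher organ. None of the 10 had a count in the muscle of calves 3217, 3218 and 5932. APOA2 (ENSBTAG00000009212), an apolipoprotein of high-density lipoprotein, stood at 2958, 3363, 2517 and 2936 CPM in liver, with a mean of 2946 ± 423 (SD, n = 3). Against a floor of 3 counts per muscle library its mean was at least 18820.5-fold higher in liver (FDR 2.21e-09). The bound was 6842-fold for APOB, 4106-fold for the fatty acid binding protein FABP1 and 3508-fold for the mannose-binding lectin MBL2. Floors and intervals cover counting error only.

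Towards muscle, the 10 named genes were MYH2, ACTA1, TNNC2, MYH7, MYLPF, TNNT3, HHATL, LDB3, MYO18B and LRRC30. MYH2 (ENSBTAG00000007090), the myosin heavy chain of fast oxidative fibres, stood at 10866, 8965, 10559 and 9917 CPM in muscle and had no count in the liver of the first 3 calves and 1 in that of calf 3213. Its mean was at least 103992-fold higher in muscle (FDR 2.29e-09). MYH7 (ENSBTAG00000009703), the heavy chain of slow fibres, had no count in any liver library and 5031, 3189, 2405 and 3137 CPM in muscle, at least 36356-fold higher. ACTA1 (ENSBTAG00000046332) stood at 146702, 140778, 125380.0 and 135932 CPM in muscle with 0, 9, 3 and 1 counts in liver, and its muscle mean was 137620.0 ± 11006 (SD, n = 3). TNNC2 had 0, 2, 1 and 0 counts in liver, and its ratio over the 3 calves was 813782-fold (95% counting interval 276543 to 3918920.0). The heavy chains and actins are near-identical families, so reads of 1 member may have been lost or counted for another.

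**Figure D2:**
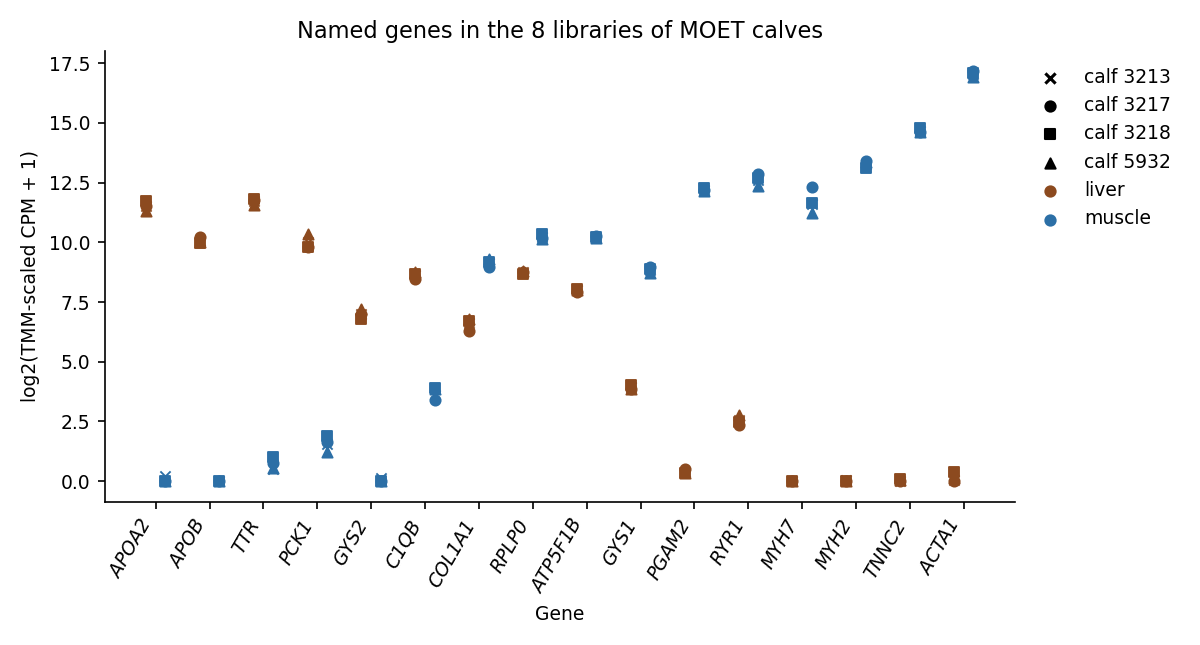
Level of 16 named genes, as log2(TMM-scaled CPM + 1), in the liver (brown) and muscle (blue) library of each calf; marker shapes show the calf. The organs do not overlap for any of the 16 genes, and the calves lie close together beside the gap between the organs.

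Genes for proteins released into plasma were higher in liver throughout. Of the 26 plasma proteins listed, 4 could be named and tested, and all 4 were called higher in liver, with a median difference of 12.58, or 10.80 with genes without a count in muscle set at their bound, against a median of 0.14 for all genes tested. RBP4, which carries retinol, stood at 3888, 4731, 3761 and 4178 CPM in liver and 6.26, 5.48, 6.23 and 5.92 in muscle. TTR, which carries thyroid hormone, stood at 3446, 3621, 3022 and 3409.8 CPM in liver and 0.701, 0.986, 0.483 and 0.434 in muscle. In each calf the liver values of both genes lay far above the muscle values: the difference was 9.42 (SE 0.21, FDR 2.58e-10) for RBP4 and 12.19 (SE 0.24, FDR 1.73e-10) for TTR. ORM1, an acute-phase glycoprotein, had 2 counts in the 3 muscle libraries, a ratio of 57272-fold (95% counting interval 16518 to 492713). SAA4, an apolipoprotein of the serum amyloid family, had none and was at least 255-fold higher in liver.

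All 6 named apolipoproteins and lipid-handling genes of the list of 14 were called higher in liver (median 14.06, or 11.58 with bounds). APOE, the ligand by which remnant particles are taken up, stood at 3353, 4359.7, 3065 and 3501 CPM in liver and was still detectable in muscle at 18.7, 23.4, 12.7 and 17.5. It differed by 7.65 (SE 0.19, FDR 3.96e-10). APOA1, the main protein of high-density lipoprotein, stood at 165, 295, 188 and 210.4 CPM in liver and 2.43, 2.25, 0.773 and 1.57 in muscle, a difference of 6.91 (SE 0.27, FDR 6.25e-09). In both organs calf 5932 had a lower APOA1 level than calf 3218. The hepatic lipase LIPC was 1484-fold higher in liver, with 6 counts in the 3 muscle libraries. APOC3, an inhibitor of triglyceride clearance, had no count there and was at least 7745-fold higher in liver.

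Each of the 8 named clotting genes of 19 listed was called higher in liver (median 13.61, or 10.73 with bounds). SERPIND1, heparin cofactor II, an inhibitor of thrombin, stood at 1929, 2173, 1973 and 2062 CPM in liver against 0.216, 0, 0.193 and 0.163 in muscle. F10, the zymogen whose active form makes thrombin, stood at 782, 933, 797 and 846 CPM and F5, its cofactor, at 574, 496, 518 and 525 CPM in liver. Their differences were 13.45 (SE 0.30, FDR 2.61e-10) and 11.05 (SE 0.22, FDR 1.73e-10). F7, F11 and PROC had no count in any muscle library and were at least 648-fold, 1162-fold and 2594-fold higher in liver. F12 and PROZ differed by 9.58 and 10.41.

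The 4 named complement genes of 18 were called higher in liver, with a wide range. C5, the precursor of the membrane attack step, stood at 1702, 1771, 1254 and 1591 CPM in liver with 2 counts in the 3 muscle libraries, a ratio of 45866-fold (95% counting interval 12540.3 to 374056). C7, a part of the membrane attack complex, had 88.5, 78.4, 86.3 and 84.7 CPM in liver and 12.3, 12.5, 9.27 and 10.9 in muscle, a difference of 2.90 (SE 0.13, FDR 1.87e-08). C8G and MASP2 lay between, at 4.54 and 5.47.

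Enzymes of glucose output were higher in liver, with 1 exception among the named genes. Of 15 listed genes of gluconeogenesis and liver glycogen, 5 could be tested, and 4 were called higher in liver. PCK1, which commits carbon to glucose synthesis, stood at 891, 894, 1293 and 1037 CPM in liver and 2.10, 2.74, 1.35 and 1.95 in muscle. Calf 5932 had the highest liver level and the lowest muscle level, so its organs were farthest apart. The difference was 8.95 (SE 0.28, FDR 1.88e-09). FBP1, which removes a phosphate from fructose bisphosphate, was 791-fold higher in liver. PPP1R3C, which brings a phosphatase to glycogen, went the other way: 65.6, 96.6, 61.7 and 74.2 CPM in liver and 245, 313, 229 and 255 in muscle, -1.83 (SE 0.11, FDR 1.56e-07). Calf 3218 had the highest level of this gene in both organs.

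All 7 named genes of amino acid breakdown and the urea cycle, of 32 listed, were called higher in liver (median 12.997, or 8.98 with bounds). FTCD, of histidine breakdown, had no count in any muscle library and was at least 2903-fold higher in liver. SLC25A15, the mitochondrial ornithine carrier of the urea cycle, stood at 18.7, 17.2, 25.99 and 18.8 CPM in liver and 0.917, 1.10, 1.55 and 1.09 in muscle, 4.12 (SE 0.15, FDR 4.47e-09). AASS, the first enzyme of lysine breakdown, was near the threshold, at 6.32, 4.59, 9.29 and 6.75 CPM in liver and 4.96, 4.60, 3.82 and 4.34 in muscle. The organs met in calf 3218 for AASS, and the difference of 0.56 (SE 0.23, FDR 0.0426) fell to 0.18 (FDR 0.355) without calf 5932.

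Bile acid, detoxification and lipid genes followed the same direction. The 3 named bile acid genes of 15 were called higher in liver (median 13.84, or 8.87 with bounds). CYP7A1, the rate-limiting enzyme of bile acid synthesis, had no count in any muscle library and 140.3, 221, 68.5 and 130.5 CPM in liver, at least 916-fold higher. Its liver level was highest in calf 3218 and lowest in calf 5932. NR0B2, a nuclear receptor that represses CYP7A1, stood at 6.66, 12.5, 13.8 and 10.8 CPM in liver, with the lowest value in calf 3217. The 8 named genes for foreign compounds, of 32, were called higher in liver (median 8.16, or 7.52 with bounds). EPHX1, an epoxide hydrolase, stood at 779, 804, 830.2 and 815 CPM in liver and 16.1, 18.95, 14.7 and 16.1 in muscle, a difference of 5.61 (SE 0.15, FDR 6.56e-10). FMO1, which oxidises nitrogen and sulfur compounds, had no count in the muscle of the 3 calves and was at least 4844-fold higher in liver.

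Of 20 genes of ketone and lipid synthesis 6 could be tested, and all were called higher in liver (median 3.68). ACLY, which makes cytosolic acetyl-CoA, stood at 40.7, 66.9, 33.4 and 46.2 CPM in liver and 7.88, 8.71, 8.50 and 8.25 in muscle. Its liver level was highest in calf 3218, and the organs did not overlap. ACLY, ACACA and GPAM, of fatty acid and glyceride synthesis, differed by 2.43, 2.51 and 2.76.

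The 8 named regulators of liver genes, of 16 listed, were all called higher in liver (median 7.62, or 5.85 with bounds), but the gap ranged widely. FOXA2, ONECUT2 and CREB3L3 had no count in any muscle library and were at least 117-fold, 66.6-fold and 499-fold higher in liver. The nuclear receptors NR1I3 and NR5A2 differed by 9.59 (SE 0.21, FDR 2.55e-10) and 3.65 (SE 0.14, FDR 7.33e-09). PPARA, which drives fatty acid oxidation, was present in both organs, at 30.03, 19.3, 31.01 and 26.5 CPM in liver and 11.7, 9.48, 9.81 and 9.99 in muscle, 1.36 (SE 0.13, FDR 6.21e-06). XBP1, of the unfolded protein response, differed by 2.03. Among 7 named hormones, carriers and receptors of the liver, of 16, IGFBP4 and IGFALS, which hold insulin-like growth factors in plasma, differed by 5.51 (SE 0.16, FDR 1.15e-09) and 6.56 (SE 0.17, FDR 6.14e-10). GHR, the growth hormone receptor, stood at 295, 257, 197 and 219.6 CPM in liver and 82.7, 83.8, 73.7 and 79.01 in muscle. FGF21, a fasting hormone, had 24, 22, 43 and 21 counts in liver and 1, 1, 3 and 0 in muscle.

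Among the muscle lists, the margins were largest in the contractile apparatus. All 5 named genes of the thick filament, of 17 listed, and all 4 of the thin filament, of 16, were called higher in muscle, with medians of -17.85 (-15.15 with bounds) and -18.12. The 4 named thin filament genes held between 13.7% and 14.1% of the counts of a muscle library. MYLPF, the regulatory light chain of fast fibres, stood at 16115, 17346, 15936 and 16123 CPM in muscle with 0, 6, 0 and 1 counts in liver. TNNT3, the fast troponin that binds tropomyosin, stood at 18942, 19500.2, 19288 and 18995 CPM. MYH4, a further fast heavy chain, was low at 5.23, 7.72, 2.90 and 4.45 CPM in muscle with no count in liver, at least 54.3-fold higher. MYOM1, which crosslinks myosin at the M-band, stood at 1344, 1270.5, 1029 and 1194 CPM in muscle and 4.46, 2.41, 3.72 and 3.44 in liver, a difference of -8.44 (SE 0.23, FDR 6.93e-10). LMOD2, an actin nucleator, differed by -8.20.

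The 4 named Z-disc genes of 25 were called higher in muscle (median -8.97). LDB3 and MYOZ1, which tie proteins to the Z-disc, differed by -15.23 (SE 0.28, FDR 1.73e-10) and -12.34 (SE 0.26, FDR 1.89e-10). MYOZ1 stood at 8007, 8454, 5889 and 7297 CPM in muscle and 1.69, 1.19, 1.38 and 1.38 in liver. PDLIM5 and SYNPO2 were found in both organs, with differences of -4.28 and -5.60.

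Calcium release and re-uptake were represented by 5 named genes of 22, all called higher in muscle (median -9.86). RYR1, the calcium release channel of the sarcoplasmic reticulum, stood at 7446, 6656, 5189 and 6299 CPM in muscle and 4.06, 4.59, 5.81 and 4.85 in liver, -10.37 (SE 0.28, FDR 7.17e-10). SCN4A, the sodium channel of the muscle action potential, had 5 counts in the 3 liver libraries and differed by -12.32 (SE 0.23, FDR 1.73e-10). ATP2A2 and PLN, the calcium pump of slow muscle and other cells and its inhibitor, had smaller gaps, 16.6-fold and 13.9-fold higher in muscle. ATP2A2 stood at 1071, 736, 542 and 687 CPM in muscle and 49.4, 46.9, 44.9 and 46.8 in liver. Calf 3217 had the highest muscle level of ATP2A2, PLN and MYH7, and the organs did not overlap for any of the 3 genes.

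Of 32 genes of fuel use in muscle 6 could be tested, and 5 were called higher in muscle (median of the 6 -5.34). PGAM2, the glycolytic mutase of muscle, stood at 4634, 4998, 4516 and 4614 CPM in muscle and 0.406, 0.264, 0.277 and 0.321 in liver, -13.85 (SE 0.25, FDR 1.73e-10). LDHA, which makes lactate, stood at 3979, 4154, 3882 and 3918 CPM in muscle and 21.7, 34.5, 20.7 and 25.2 in liver, -7.33 (SE 0.21, FDR 9.83e-10). SLC16A3, which exports lactate, and CD36, which takes up fatty acids, differed by -5.64 and -3.66. PPARGC1A, a coactivator of mitochondrial genes, did not pass the test, at 12.9, 14.7, 14.9 and 14.1 CPM in liver and 15.3, 14.6, 21.01 and 16.2 in muscle (-0.25, SE 0.12, FDR 0.0824). It was called higher in muscle without calf 3218 (-0.41, FDR 0.0236) and under RLE scaling (FDR 0.0425), and its sign turned under library totals, to 0.53.

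The 4 named regulators of muscle, of 21, were called higher in muscle (median -9.07, or -6.93 with bounds). SMYD1, a methyltransferase of muscle differentiation, and MSTN, which limits muscle growth, had no count in any liver library and were at least 373-fold and 240.0-fold higher in muscle. MEF2C, a transcription factor of muscle genes, differed by -5.96 (SE 0.14, FDR 2.62e-10). FST, an antagonist of MSTN, had the smallest gap, at 12.1, 12.3, 10.2 and 11.3 CPM in muscle and 4.80, 3.93, 9.23 and 5.46 in liver, -1.01 (SE 0.25, FDR 0.00365). Its FDR was 0.352 under library totals. Of 13 genes of the neuromuscular junction 2 could be tested. ERBB3, a receptor for neuregulin, was called higher in liver (5.45, SE 0.18, FDR 2.48e-09), and LRP4, the agrin receptor, did not pass the test (-0.11, SE 0.12, FDR 0.391) and turned to 0.67 under library totals.

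**Figure D3:**
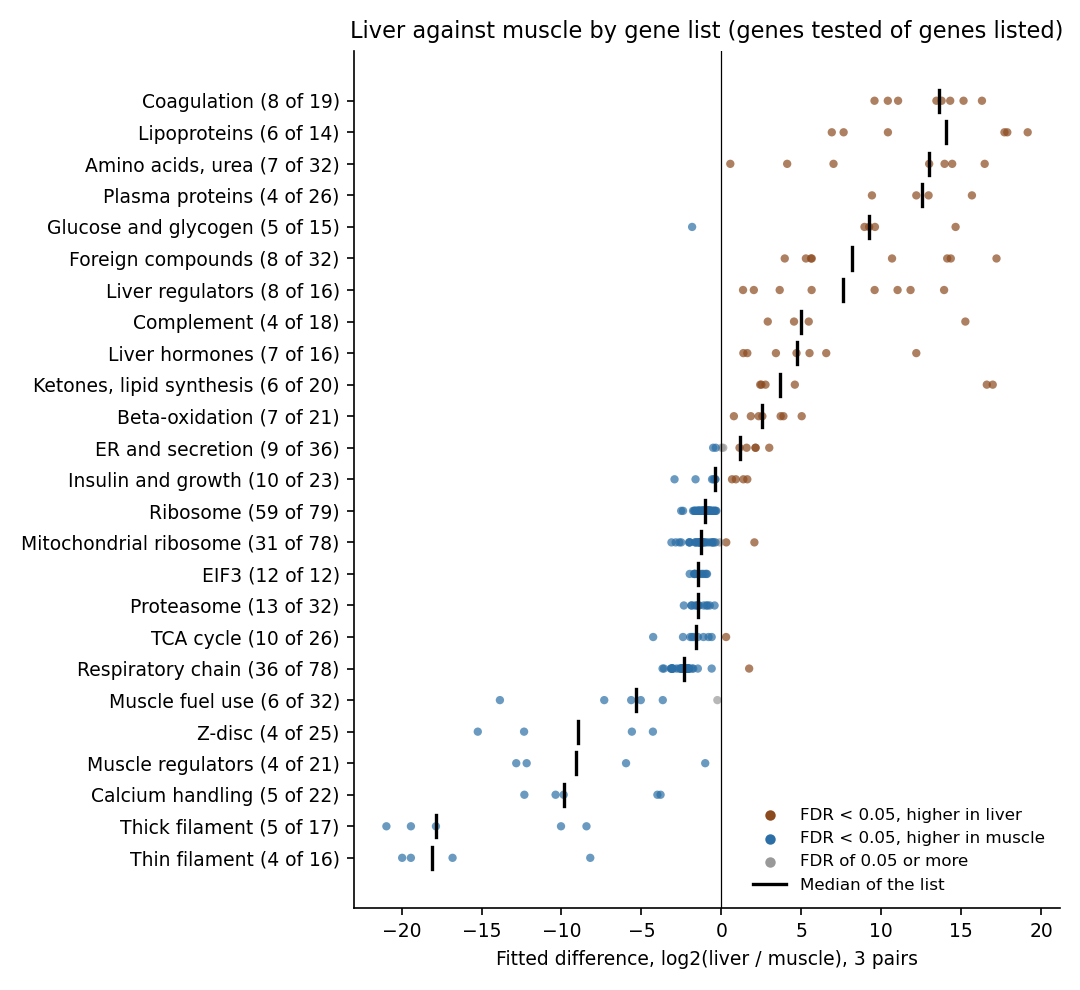
Fitted log2(liver / muscle) of each gene tested in 25 gene lists, with the median of each list as a black bar; colours show the direction at an FDR under 0.05. By their medians, the liver lists shown lie to the right and the muscle lists shown to the left. PPP1R3C of the glucose and glycogen list lies on the muscle side at -1.83. The lists of shared functions lie nearer to 0, with the ribosome at a median of -1.03 and beta-oxidation at 2.56. The neuromuscular junction list, with a median of 2.67 over 2 genes, is not shown.

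Many enzymes have a form typical of muscle and another found in liver, in some cases along with many other tissues. Of 30 such pairs, 18 genes could be tested, and both members only for glycogen synthase and the alpha subunit of the AMP-activated kinase. Glycogen synthase was split: GYS2 stood at 128, 111, 145 and 127 CPM in liver with no count in the muscle of the 3 calves and 2 in that of calf 3213, at least 817-fold higher in liver. GYS1 stood at 503, 473, 415 and 457 CPM in muscle and 13.7, 15.1, 13.4 and 14.3 in liver, -5.04 (SE 0.13, FDR 5.99e-10). The kinase was not split in this way. PRKAA1 and PRKAA2 were both called higher in muscle by small margins, -0.58 (SE 0.13, FDR 0.00176) and -0.49 (SE 0.21, FDR 0.0494), and the sign of both turned under library totals, to 0.20 and 0.29. PRKAA2 was not called without calf 3218 (-0.23, FDR 0.357) or without the calf as a block (FDR 0.0509).

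Of the 13 liver forms that could be tested, 10 were called higher in liver. The 10 included FBP1, GYS2, FABP1, COX6A1, CKB, MAT1A, GLS2 and ACACA. CKB, the creatine kinase of brain and other tissues, differed by 4.56 (SE 0.16, FDR 2.96e-09). MAT1A, which makes the methyl donor S-adenosylmethionine in liver, had 4 counts in the 3 muscle libraries and 631, 641, 562 and 607 CPM in liver. ENO1, the widely expressed enolase, did not pass the test (0.21, SE 0.11, FDR 0.0931), and PRKAA1 and ATP2A2 were called higher in muscle. All 5 muscle forms that could be tested were called higher in muscle: PGAM2, GYS1, the ADP/ATP carrier SLC25A4, the adenylosuccinate synthase ADSS1 and PRKAA2. SLC25A4 stood at 1623, 1652, 1782 and 1648 CPM in muscle and 94.5, 127, 85.6 and 103 in liver, -4.06 (SE 0.17, FDR 1.04e-08).

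Functions that both organs share differed by much less. The named genes of the cytosolic ribosome stood higher in muscle under TMM: 59 of 79 could be tested, and all 59 were called higher in muscle, where 38.3% of all genes tested were. Their median difference was -1.03, that is -1.18 relative to the median of all genes, and 22 passed the test for more than 2-fold. Under library totals the median was -0.25 and 29 of the 59 were called higher in muscle. The paper reports ribosome genes as higher in liver and lower in muscle of IVP calves. Naming genes through its tables may thus favour a difference towards muscle in MOET calves, which was not tested. In the fit with the IVP calves, the median of the 59 genes was -1.05 in MOET and 0.09 in IVP calves. RPLP1, of the ribosomal stalk, stood at 3527, 3998, 3314 and 3571 CPM in muscle and 645, 784, 635 and 682 in liver, -2.39 (SE 0.14, FDR 9.92e-08). RPL14 was nearest to 0, at -0.32 (SE 0.12, FDR 0.0385), and turned to 0.46 under library totals. It was not called without calf 3217 (-0.41, FDR 0.0595), without calf 5932 (-0.18, FDR 0.142) or without the calf as a block (FDR 0.0511). Genes of this family have many processed copies in mammalian genomes, which can share reads.

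Translation initiation factor 3 (EIF3) brings the small ribosomal subunit to mRNA. Its list was added after values were seen, and all 12 listed subunits were called higher in muscle (median -1.45; -0.67 under library totals). The largest gap was that of EIF3J, at 90.3, 90.9, 92.5 and 90.7 CPM in muscle and 22.8, 26.99, 20.1 and 22.03 in liver, -1.98 (SE 0.12, FDR 1.36e-07). EIF3L had the smallest, -0.90 (SE 0.10, FDR 1.48e-05), and EIF3A and EIF3L were not called under library totals (FDR 0.159 and 0.296). Of the 32 proteasome genes 13 could be tested, all called higher in muscle (median -1.46; -0.68 under library totals). PSMC3, an ATPase of its cap, stood at 279.9, 279, 252 and 268 CPM in muscle and 53.1, 56.6, 49.8 and 52.6 in liver, -2.35 (SE 0.11, FDR 2.13e-08). PSMB2 was called higher in muscle at -0.42 but higher in liver, at 0.36, under library totals.

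Mitochondrial genes were higher in muscle for the respiratory chain and higher in liver for fatty acid breakdown. Of 78 nuclear genes of the respiratory chain and ATP synthase, 36 could be tested. Of these, 35 were called higher in muscle and 34 of them passed 2-fold, against 38.3% and 21.6% of all genes tested. The median of the 36 was -2.36, and -1.58 under library totals. ATP5F1B, the catalytic subunit of ATP synthase, stood at 1245, 1211, 1153 and 1172 CPM in muscle and 240.1, 264, 256 and 258 in liver, -2.25 (SE 0.12, FDR 8.22e-08). COX4I1, of cytochrome oxidase, differed by -2.47 (SE 0.12, FDR 2.97e-08), and UQCR11, of the cytochrome bc complex, by -3.68 (SE 0.12, FDR 2.46e-09). SDHC, an anchor of succinate dehydrogenase, had the smallest gap among the genes higher in muscle, -0.61 (SE 0.10, FDR 0.000222), and it turned under library totals, to 0.17. COX6A1 was the exception: it stood at 57.6, 73.01, 65.2 and 65.8 CPM in liver and 17.8, 19.3, 21.4 and 19.1 in muscle, 1.74 (SE 0.11, FDR 1.85e-07). It is the form of its subunit found outside heart and skeletal muscle. The 13 genes of the mitochondrial genome are not named in the tables used here.

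Of 26 genes of the citric acid cycle and pyruvate dehydrogenase 10 could be tested, and 9 were called higher in muscle (median -1.60; -0.82 under library totals). IDH3A, the catalytic subunit of the NAD-dependent isocitrate dehydrogenase, stood at 108, 108, 127 and 112 CPM in muscle and 5.51, 5.97, 6.34 and 6.07 in liver, -4.26 (SE 0.11, FDR 6.49e-10). The GDP-forming subunit SUCLG2 was called higher in liver (0.30, SE 0.11, FDR 0.025), a call lost under RLE scaling (FDR 0.0621), under DESeq2 (0.0693) and when any 1 of the 3 calves was left out (FDR 0.0533 to 0.123). By contrast, all 7 named genes of beta-oxidation, of 21, were called higher in liver (median 2.56). EHHADH, of peroxisomal oxidation, differed by 5.02 (SE 0.14, FDR 8.68e-10). ECHS1 and ACADM, of mitochondrial oxidation, differed by 2.56 and 1.84.

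Of 78 mitochondrial ribosomal protein genes 31 could be tested, 28 called higher in muscle and 2 in liver (median -1.27; -0.49 under library totals). MRPL21 stood at 53.3, 52.1, 57.7 and 53.7 CPM in muscle and 5.61, 7.13, 6.03 and 5.91 in liver, -3.12 (SE 0.12, FDR 6.02e-09). MRPL23 went the other way, at 143, 189, 158 and 155 CPM in liver and 35.5, 37.7, 43.4 and 38.7 in muscle, 2.07 (SE 0.12, FDR 1.42e-07). MRPL19 was also called higher in liver (0.31, SE 0.10, FDR 0.015), but not under DESeq2 (FDR 0.1096) or without calf 3217 (0.30, FDR 0.0829) or 3218 (0.23, FDR 0.139), and MRPS9 did not pass the test (-0.11).

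Genes of the secretory pathway were mixed. Of 36 listed genes of the endoplasmic reticulum (ER) and of transport from it, 9 could be tested: 5 were called higher in liver and 2 in muscle, where 44.2% and 38.3% of all genes were (median 1.14). LMAN1, a cargo receptor that carries clotting factors out of the ER, stood at 98.5, 89.2, 92.7 and 93.8 CPM in liver and 11.01, 11.7, 12.5 and 11.6 in muscle, 2.995 (SE 0.11, FDR 5.05e-09). SEC61A1, the channel through which new proteins enter the ER, differed by 2.13 (SE 0.12, FDR 1.23e-07). SPCS1 and DAD1 were called higher in muscle at -0.51 and -0.35, and under library totals all 9 were called higher in liver. The call for DAD1 was lost without calf 3217 (-0.34, FDR 0.0601). Insulin and growth signalling was divided as well: of 10 genes tested of 23, 4 were called higher in liver (GHR, INSR, IRS1 and MTOR) and 6 in muscle (median -0.38; 0.40 under library totals). INSR, the insulin receptor, stood at 24.99, 15.3, 23.2 and 21.1 CPM in liver and 8.85, 8.65, 6.67 and 7.44 in muscle, 1.38 (SE 0.17, FDR 3.77e-05). IGF1R, the receptor of insulin-like growth factor, stood at 4.60, 2.24, 4.15 and 3.63 CPM in liver and 11.01, 11.4, 10.5 and 10.7 in muscle, -1.62 (SE 0.20, FDR 4.38e-05). EIF4EBP1, a repressor of translation that mTOR inactivates, differed by -2.93 (SE 0.17, FDR 1.45e-07). RPTOR, TSC1, PRKAA1 and PRKAA2 had gaps under 0.6 towards muscle. RPTOR was not called without calf 3217 (-0.35, FDR 0.0857), nor TSC1 without calf 3218 (-0.24, FDR 0.120) or without the block (FDR 0.0512), and only EIF4EBP1 and IGF1R were called higher in muscle under library totals.

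**Figure D4:**
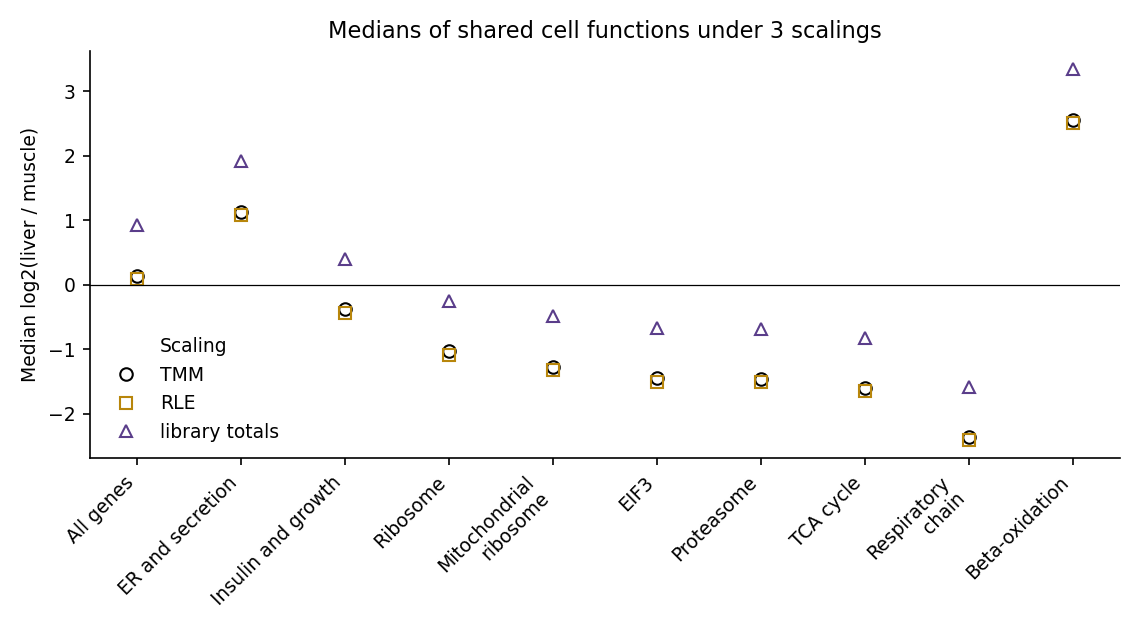
Median log2(liver / muscle) of all genes tested and of 9 lists of shared functions under TMM, RLE and library totals. TMM and RLE nearly coincide, while library totals move every median towards liver; the median of all genes goes from 0.14 to 0.92 and that of the ribosome from -1.03 to -0.25.

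Markers of other cells of the organs differed too. These are pieces of whole tissue, so that fewer cells of a type and less RNA per cell cannot be told apart. All 5 named macrophage markers of 12 were called higher in liver (median 4.45), and their summed level lay between 965 and 1209 CPM in liver and 36.8 and 50.0045 CPM in muscle. C1QB, a chain of complement C1q, stood at 348, 402, 434 and 399 CPM in liver and 9.66, 14.1, 13.6 and 11.02 in muscle, and CSF1R, the receptor for the macrophage growth factor, at 125, 125, 137 and 132 and 9.77, 11.99, 10.5 and 10.05. Of the sinusoidal endothelium, CLEC4G and STAB1 (2 of 7) were called higher in liver, with 9.44 (SE 0.27, FDR 9.54e-10) and 1.83 (SE 0.12, FDR 2.22e-07). Among 4 named general endothelial markers of 10, VWF, EGFL7 and CLDN5 were called higher in muscle and CDH5, the cadherin of endothelial junctions, in liver (1.03, SE 0.10, FDR 6.2e-06). The bile duct markers SPP1 and CFTR (2 of 7) were low, under 5 CPM in every liver library.

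Of 6 named fibroblast and stellate cell markers of 11, 5 were called higher in muscle. The summed level of all 6, RELN included, lay between 709.7 and 747 CPM in liver and 1689.9 and 2112 CPM in muscle. COL1A1, a chain of collagen I, stood at 493, 575, 628 and 558 CPM in muscle and 76.1, 102, 109 and 96.4 in liver, -2.57 (SE 0.12, FDR 2.15e-08). RELN, a matrix protein of stellate cells, went the other way at 73.5, 41.1, 56.9 and 52.1 CPM in liver and 0.378, 0.274, 0.676 and 0.380 in muscle, 6.97 (SE 0.19, FDR 8.45e-10). FBLN1 (-0.58, SE 0.12, FDR 0.00103) turned to 0.20 under library totals. PLIN4, a coat protein of lipid droplets in fat cells and the only named one of 6 fat cell markers, stood at 42.5, 35.4, 30.7 and 35.1 CPM in muscle and 2.40, 1.55, 2.95 and 1.86 in liver. CNN1, of smooth muscle and the only named one of 6, was called higher in muscle (-1.13, SE 0.20, FDR 0.000416), but not under library totals (FDR 0.105). The lists for lymphocytes, Schwann cells, satellite cells and red blood cells hold no gene named in the tables used here, and the only named pancreatic marker was below the filter. The part of these cells in the differences above was not tested.

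The organ difference was then set against that of the IVP calves, in 1 fit over 14 libraries of 7 calves with the calf as a block. All IVP calves have the mother of MOET calves 3217 and 3218, and IVP calves 3208 and 3209 also have their father. IVP calves 5833 and 5841 share another father, and MOET calf 5932 has a different mother and father. The 7 calves are thus not unrelated, and embryo origin cannot be fully told apart from parentage. Across the 15377 genes tested, the differences in MOET and IVP calves had a Pearson correlation of 0.965, which is a description across genes that share libraries within each group. The difference itself differed between the groups at an FDR under 0.05 for 1151 genes (7.49%), 661 (4.3%) further towards liver in MOET calves and 490 (3.19%) further towards muscle. This count changed with the calves fitted. It was 0 without calf 3217, 3218 or 5932, while 3099, 3714 and 3416 genes still had an unadjusted p under 0.05. Leaving out a calf also leaves fewer pairs, so loss of power and dependence on single calves cannot be told apart. The count was 31 without IVP calf 3209, 42 without 5833 and 2713 without 3208, against 1843 with DESeq2. Among the IVP liver libraries, that of calf 5841 lay a median of 0.372 log2 units from the average of the others, against 0.0993 to 0.235 for the other 3, and 1559 genes were called without it.

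Among the 299 genes of the lists that were tested, 54 (18.1%) were called, 35 further towards muscle in MOET calves and 19 further towards liver. The lists were chosen with earlier results on IVP and MOET calves known, so this share is not independent of them. List genes could also be named only through tables of genes picked for differences between IVP and MOET calves in these data. The share, and the counts and medians of the lists below, are therefore descriptions and no independent support for a difference between the groups. Ribosomal protein genes had a median organ difference of -1.05 in MOET and 0.09 in IVP calves, and 11 of 59 were called. For mitochondrial ribosomal proteins the medians were -1.28 and -0.42, with 13 of 31 called, and for the proteasome -1.48 and -0.59, with 4 of 13. The respiratory chain had medians of -2.37 and -1.93 with 0 of 36 genes called by edgeR. Of the lists in this paragraph, the sign of the median differed between the groups for the ribosome.

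**Figure D5:**
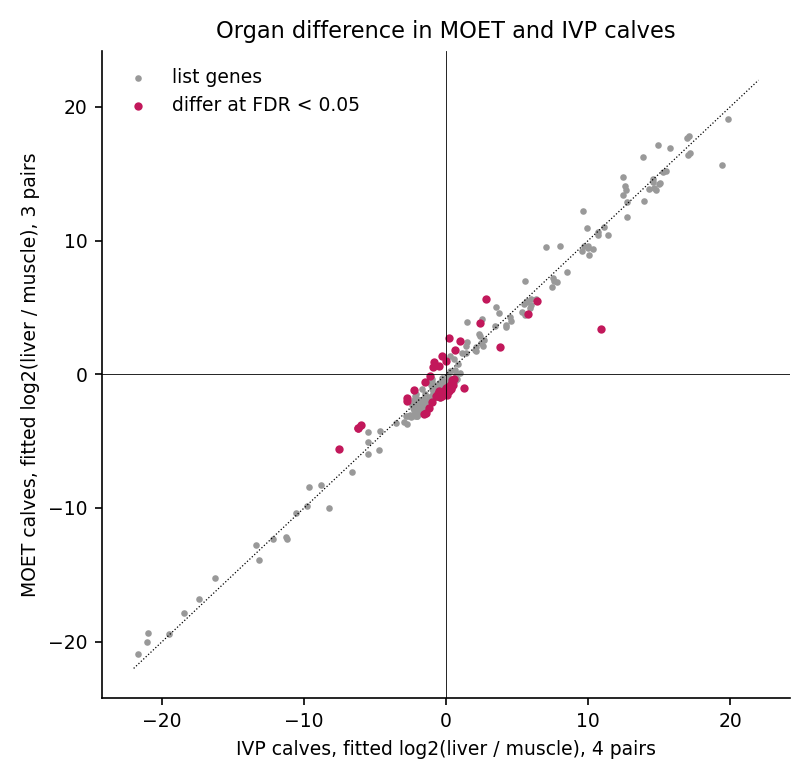
Fitted log2(liver / muscle) of the list genes in MOET calves (3 pairs) against that in IVP calves (4 pairs); pink points differ between the groups at an FDR under 0.05 and the dotted line marks equal differences. The 54 pink points lie mostly near the centre. For genes without a count in 1 organ the fitted difference is no size and could hardly be called between the groups.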

How the data were processed

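Polyadenylated RNA was sequenced by the authors in unstranded paired-end libraries. They filtered reads with SOAPnuke, aligned them with STAR (version 2.7) to bosTau9, counted them per gene with HTSeq and corrected these counts for the age of the calf using sva. The model of that adjustment is not given in the sources used here. The deposited values are whole numbers, treated as estimated counts, because the adjustment means they are no longer reads as counted. Rounding changed 0 values, and the test planned for raw counts was kept.

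The members, gene lists and enzyme pairs were chosen with earlier results of these data known. The liver and muscle libraries of a calf come from the same animal and were paired by design. The correlation of their deviations from the organ means was 0.249, 0.175 and 0.0221 in calves 3217, 3218 and 5932. Genes were filtered with filterByExpr (minimum count 10, minimum total 15) and scaled by TMM. They were tested with edgeR (version 4.0.16) by quasi-likelihood with Benjamini-Hochberg adjustment at an FDR of 0.05, and by glmTreat against a log2 change of 1. P-values measure how the difference between liver and muscle varies among 3 calves, 2 of them full siblings, with information on spread shared across genes. Differences in level between calves are taken up by the block. Floors are 3 counts per library. Alternatives were all 4 pairs, RLE, library totals, no filter, DESeq2 (version 1.42.0), no replicate block, each calf left out and a spread shared with the IVP libraries.

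Named were members of the lists and pairs, above all those of highest mean CPM and those against their list's direction, the 10 named genes with the largest difference each way, the 10 genes with the largest share in each organ, and list genes that differ between MOET and IVP calves. EIF3 was added as a list after its values were seen. Of the genes tested, 3720 have a name of their own. On simulated data the fit between organs called 80 of 94 genes changed by 1 log2 unit and 98 of 98 changed by 3, over 14528 genes, with 1.66% of its calls false. The simulation changed only 200 genes, balanced in direction, and left all others equal between the organs. In the data 82.5% of the genes were called and TMM shifted the organs by 0.78 log2 units. The simulation therefore does not cover errors of scaling, and its rates need not hold for the data. R 4.3.3, Python 3.11.15 and matplotlib 3.10.9 were used. Columns of the authors' own comparisons and the methylation data were not used here, and nor were sequences. Some genes of the lists are counted but not reported by name here.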

Additional observations from a re-analysis of the deposited data

Results flagged for a closer look

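The organ difference of 54 list genes differed between MOET and IVP calves in edgeR's interaction test, each with an FDR between 0.0228 and 0.0490. Values of 51 of them are given, as log2 of liver over muscle in MOET calves minus the same in IVP calves, negative where MOET calves lie further towards muscle. Each of the 54 kept its sign when any of the 7 calves was left out. The 54 were picked by the fit of these same 7 calves, so a kept sign is nearly fixed in advance and is no support. Without calf 3217, 3218 or 5932 no gene tested reached an FDR under 0.05, while 3099, 3714 and 3416 had an unadjusted p under 0.05. In 17 of the 54 the organ difference had opposite signs in the groups. List genes were named through tables of genes picked for differences between IVP and MOET calves, so these counts are no independent support.

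In the cytosolic ribosome the 9 values given were negative: RPL13A -1.17, RPL21 -1.33, RPL28 -1.48, RPL29 -1.32, RPL38 -1.36, RPSA -1.03, RPS14 -1.22, RPS19 -1.29 and RPS23 -1.15. The 13 mitochondrial ribosomal genes were also negative: MRPL23 -1.71, MRPL36 -1.02, MRPL40 -1.47, MRPL41 -1.62, MRPL46 -1.01, MRPL52 -1.07, MRPL54 -1.03, MRPS2 -0.92, MRPS16 -1.05, MRPS18A -0.90, MRPS24 -0.89, MRPS26 -1.46 and MRPS28 -0.73. So were the 4 proteasome genes, PSMA4 -1.09, PSMB2 -0.88, PSMB3 -0.94 and PSMB6 -0.90, and EIF3G -1.03.

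Among liver lists the values were C8G -1.26, MASP2 -0.92, AASS 1.48, ACACA 1.51, GPAM 2.53, PROX1 2.80, PPARA 1.62 and FGF21 -7.52. FGF21, the largest of the 54, had 89 counts in the liver libraries and 5 in the muscle libraries of the 3 MOET calves. Among muscle lists they were SYNPO2 1.92, ATP2A2 2.22, PLN 2.15, LRP4 1.04 and FST -2.29. For the slow-muscle pair ATP2A2 and PLN the fitted organ difference was -4.01 and -3.82 in MOET and -6.23 and -5.97 in IVP calves.

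Shared functions gave DLD 0.80, PDHA1 0.99, ACADM 1.17, DAD1 -0.89, IRS1 1.77, MTOR 1.16 and EIF4EBP1 -1.36, and markers of other cells gave CDH5 1.01, FBLN1 0.88, PLIN4 2.22 and CNN1 1.11.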

How the results depend on the processing

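The total number of genes called between the organs, and of those past 2-fold, stayed within 1.5 times under every alternative, including without the replicate block. Leaving out a calf gave 11469 to 12062 calls and 7014 to 7306 past 2-fold. Under library totals 3388 genes were called higher in muscle, and past 2-fold 6293 were higher in liver and 1899 in muscle. Of 261 named genes, 20 turned sign, all under library totals: LRP4 to 0.67, PPARGC1A to 0.53, SDHC to 0.17, SPCS1 to 0.27, DAD1 to 0.43, RPTOR to 0.38, PRKAA1 to 0.20, PRKAA2 to 0.29, TSC1 to 0.41, FBLN1 to 0.20, RPL14 to 0.46, RPL7A to 0.42, RPSA to 0.0877, RPS19 to 0.00457, MRPS9 to 0.67, PSMB2 to 0.36, SERPINE2 to 0.0659, HOXB3 to 0.53, ATP6V0D1 to 0.34 and PRKAB1 to 0.42. These had small differences that the shift of 0.78 exceeds.

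The count of genes whose organ difference differs between MOET and IVP calves moved most: 3491 with all 4 pairs, 1778 without the filter, 1843 with DESeq2, 1878 without the replicate block, and 0 to 2713 when each calf was left out. The cause was not tested. The simulated test recovered 13 of 98 genes changed by 1 log2 unit there and 92 of 99 changed by 3. Members of a list called in its leading direction kept within 1.5 times in 453 results. Of the 7 others, 6 were under library totals and 1 was with a spread shared with the IVP libraries. The 3 libraries per organ, 2 of them from full siblings, and the age adjustment limit these comparisons.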

Other observations

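Families that the lists did not hold were described after their values were seen, by symbol and without a test of the family. All 7 named organic ion carriers of the SLC22, SLC17 and SLCO families were called higher in liver by edgeR, where 44.2% of all genes tested were. Their summed level was at most 0.58 CPM in any muscle library, so they passed the filter on their liver counts. Their count therefore describes the genes that passed and gives no direction for these families. SLC22A7, an anion carrier of the hepatocyte membrane, stood at 139.9, 184, 147 and 159 CPM in liver with no count in the muscle of the 3 calves, at least 1003-fold higher. SLCO1A2 and SLC17A3 were at least 538-fold and 592-fold higher. Of 16 mitochondrial carriers 10 were called higher in liver and 5 in muscle, where 44.2% and 38.3% of all genes tested were. SLC25A47, listed at 87.1, 95.8, 82.4 and 89.4 CPM in liver, was close to absent from muscle, and the citrate carrier SLC25A1 differed by 2.02 (SE 0.12, FDR 1.77e-07). Of 7 serpins 6 were called higher in liver, and SERPINE2, an inhibitor made by many cell types, was called higher in muscle (-0.71, SE 0.18, FDR 0.00391), with its sign turned to 0.0659 under library totals.

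All 18 interleukins, chemokines and their receptors that passed the filter, of 26 named, were called higher in liver, against 44.2% of all genes tested. Their median was 3.28, against 0.14 for all genes. A gene could pass the filter on its liver counts alone, and the rest of the 26 were not tested. The count therefore describes the genes that passed and gives no direction for the family. IL1R1, the receptor of interleukin 1, stood at 282, 300.4, 229 and 271 CPM in liver and 5.34, 5.53, 4.11 and 4.78 in muscle, and its partner IL1RAP at 50.5, 41.3, 40.9 and 41.2 and 0.216, 0.274, 0.290 and 0. CXCL12 was nearest to 0 (0.23, SE 0.10, FDR 0.0488) and was not called when any 1 calf was left out (FDR 0.0504 to 0.259). HOX genes, which mark position along the body, went towards muscle: 4 of 6 were called, and HOXA9 stood at 62.7, 77.1, 71.8 and 69.7 CPM in muscle and 0.0338, 0.0990, 0.0615 and 0.0321 in liver. HOXB3 did not pass the test (-0.25). The binding proteins of insulin-like growth factors divided between the organs. IGFBP3 differed by 4.37 (SE 0.13, FDR 1.45e-09), while IGFBP5 and IGFBP6 differed by -2.86 (SE 0.13, FDR 1.77e-08) and -3.14 (SE 0.14, FDR 1.74e-08). All 11 named ATP synthase genes were called higher in muscle, where 38.3% of all genes tested were.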
